A study of Zea mays with 18 samples.

Results

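The 3 maize hybrids of a stem RNA-seq study were compared with one another at a single stage, the big flare period, the late whorl stage before the tassel emerges. Its members are the 6 libraries labelled with that stage, of 18 in all: 2 of the low hybrid (Dan 598xFAPW), 2 of the middle hybrid (Dan 598xCML444) and 2 of the high hybrid (Dan 598xES40). Low, middle and high are the labels' classes of plant height, and all 3 hybrids share the parent Dan 598. The other 12 libraries come from the stems of the same hybrids at jointing and at tasseling, 2 libraries a group, and they served to ask which differences were confined to big flare. No treatment, plant age or growth site is given in the sources used here. Each height class is 1 hybrid, so plant height and genotype cannot be told apart. Whether the replicates of a group are separate plants is not given, so a p-value here is measured against a spread between libraries that may be technical only.

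A maize stem lengthens at the base of its internodes, where cells divide in the intercalary meristem, then expand and finally lay down secondary walls. Expansins loosen the wall of growing cells, cellulose synthases build it, and laccases and the enzymes of monolignol synthesis stiffen it. Gibberellin, brassinosteroid and auxin set the rate of this growth, and maize dwarf mutants such as dwarf3, dwarf8, nana and brachytic carry lesions in their synthesis, signalling or transport.

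Expression is given as FPKM, fragments scaled to transcript length and to the mapped fragments of a library, as the authors deposited it. Differences between hybrids are on the log2(FPKM + 1) scale with their standard error (SE), and this scale understates the change of low genes. The 6 libraries each held between 20758 and 21727 genes at 1 FPKM or more, and their top 10 genes took up 7.37% to 10.2% of the summed FPKM. Read counts are not kept in FPKM. Relative depth, read from the steps of low FPKM values, ran from 0.438 in high replicate 1 to 0.628 in middle replicate 2, where the deepest of the 18 libraries is 1. The shoot meristem gene knotted1 was at 135 to 204 FPKM and rough sheath 1 at 29.6 to 41.1 FPKM in all 6 libraries, as a shoot label requires. Zein genes of the kernel were at 0 apart from a summed 0.47 FPKM in 1 low library, and the 5 flower and tassel markers summed to 3.16 to 12.1 FPKM. Nearly all of that was MADS16, at 3.16 to 11.8 FPKM and highest in middle replicate 2, while silky 1 and an AGAMOUS-like gene reached at most 0.3 FPKM.

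Before any hybrid difference, the 2 libraries of the low hybrid and the 2 of the middle hybrid differed from each other in their wall genes. Summed over 46 expansin genes, low replicate 1 held 1569 FPKM and low replicate 2 held 221, while middle replicate 1 held 312 and middle replicate 2 held 2558. The high libraries held 314 and 507. The cellulose synthase list stood at 2557 and 814 FPKM in the low libraries, 1253 and 2505 in the middle libraries and 1617 and 1172 in the high libraries. Single genes differed far more: alpha expansin 1 (Zm00001d043047) was at 353 and 0.36 FPKM in the low libraries, 0.23 and 301 in the middle libraries and 25.0 and 39.4 in the high libraries. Of the 26 expansins tested, 14 (53.8%) were more than 1 log2 unit higher both in low replicate 1 than low replicate 2 and in middle replicate 2 than middle replicate 1. The same held for 11 of 20 cellulose synthase genes (55.0%) and 9 of 20 secondary wall genes, against 1227 of 26792 tested genes (4.58%), and the opposite pattern for 384 genes (1.43%).

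**Figure D1:**
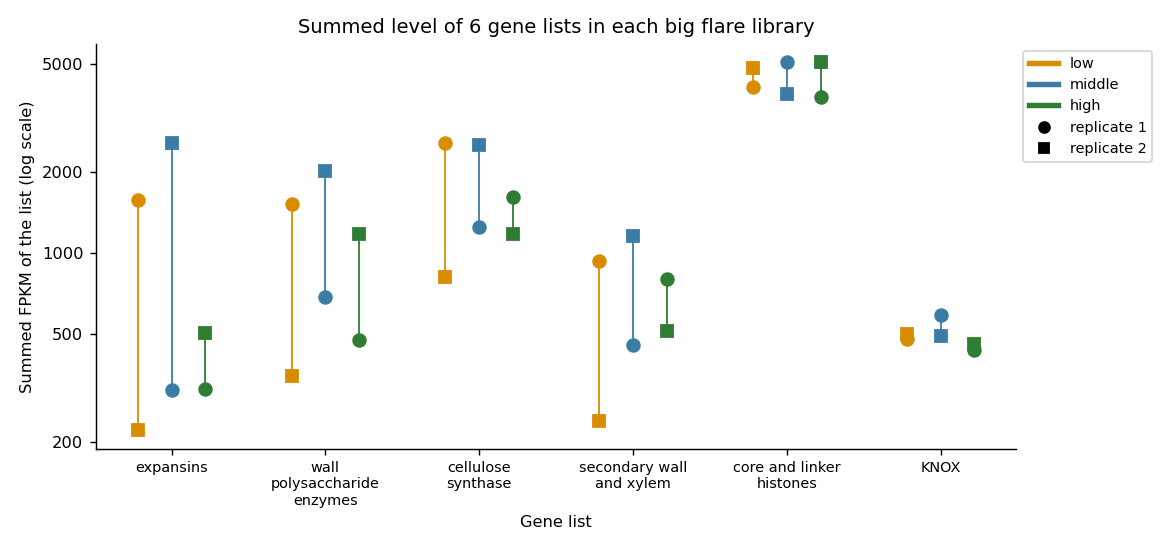
Summed FPKM (log scale) of 6 gene lists in each of the 6 big flare libraries, coloured by hybrid, with a line joining the 2 replicates. Expansins, wall enzymes, cellulose synthases and secondary wall genes separate low replicate 1 (1569 FPKM for expansins) from low replicate 2 (221) and middle replicate 2 (2558) from middle replicate 1 (312), while histones and KNOX genes do not.

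Core and linker histones, which mark dividing tissue, stayed within 3779 to 5078 FPKM in the 6 libraries, and the KNOX genes within 437 to 590. Xylem markers moved with the wall genes in the low and middle hybrids, at 1265 and 295 FPKM in the low and 653 and 1247 in the middle libraries. In the high libraries they were at 1331 and 497. From high replicate 1 to replicate 2, cellulose synthases and secondary wall genes also fell, while expansins and wall polysaccharide enzymes rose. The marker list of anther and pollen, 20 genes, summed to 412 and 35.6, 54.1 and 795, and 73.8 and 183 FPKM. In low replicate 1 and middle replicate 2 most of this came from 2 beta-expansin 1a genes, which are also members of the expansin list. Male sterile45, an anther gene, was at 15.2 to 33.2 FPKM in the 6 libraries. None of the marker genes tested was called in limma in any pair. Across genes, low replicate 1 correlated more closely with the 2 low jointing libraries (r = 0.901 and 0.914) than low replicate 2 did (0.836 and 0.856), and middle replicate 2 more closely with those of middle jointing (0.896 and 0.913) than middle replicate 1 did (0.866 and 0.878). This closeness was not particular to jointing. With the tasseling libraries, low replicate 1 correlated at 0.857 and 0.864 and low replicate 2 at 0.77 and 0.791. Middle replicate 2 did so at 0.837 and 0.864 and middle replicate 1 at 0.754 and 0.802. Replicates correlated at 0.9 in the low, 0.917 in the middle and 0.941 in the high hybrid, and low replicate 2 was nearest to middle replicate 1 (0.915). These correlations run across genes, and genes are no replicates of one another. Counts of hybrid differences are therefore given also without low replicate 1 and middle replicate 2. In stems sampled in bulk, fewer cells of a type and less RNA per cell cannot be told apart.

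The low hybrid stood furthest from the other hybrids at big flare. Against it, 779 of the 26792 genes tested (2.91%) passed the limma test in the high hybrid, 333 higher (1.24%) and 446 lower (1.66%). In the middle hybrid 647 genes (2.41%) differed from the low hybrid, 218 higher (0.814%) and 429 lower (1.6%). The high and middle hybrids differed in 431 genes (1.61%), of which the high hybrid had 266 higher (0.993%) and 165 lower (0.616%). The 3 pairs share libraries, so their lists are not independent of each other. The median difference over all genes was -0.004, -0.013 and 0.0 log2 units in these pairs. Both counts against the low hybrid and that between the high and middle hybrids moved by over 1.5 times without single libraries, where the lone library left is assumed to vary like the other groups. High against low gave 504 genes without low replicate 1, 513 without low replicate 2 and 478 without high replicate 2. Middle against low gave 429 without low replicate 2 and 377 without middle replicate 2. High against middle gave 282 and 223 without high replicates 1 and 2, and 245 without either middle library. With both low replicate 1 and middle replicate 2 left out, an alternative chosen after seeing the data, the 3 counts were 508, 267 and 232.

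A single test over the 3 hybrids, the moderated F test, was passed by 1021 genes (3.81%). Which hybrid stood apart was then read from the library values. Both libraries of 1 hybrid had to lie above or below the other 4. The gap from its mean to its neighbour also had to exceed the gap between the others by a set factor, so a merely wider gap did not count. The low hybrid was apart and higher in 344 of the 1021 genes (33.7%, where 6.23% of all tested genes show that pattern) and apart and lower in 50 (4.9%, against 3.45%). The high hybrid was apart and higher in 235 (23.0%, against 4.67%) and lower in 52 (5.1%, against 3.68%). The middle hybrid was apart and higher in 136 (13.3%, against 3.91%) and lower in 73 (7.1%, against 4.0%). The remaining 131 genes (12.8%) set no hybrid apart by this rule. In each hybrid, genes that stood above both others were more frequent among those past the test than genes that stood below. The test does not treat these directions alike. A gene expressed in 1 hybrid alone can pass the expression filter, and groups that scarcely express it add almost no spread. A gene lower in 1 hybrid carries the spread of both others. How far the filter and the scale account for these counts was not tested, so nothing about the hybrids is read from them.

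**Figure D2:**
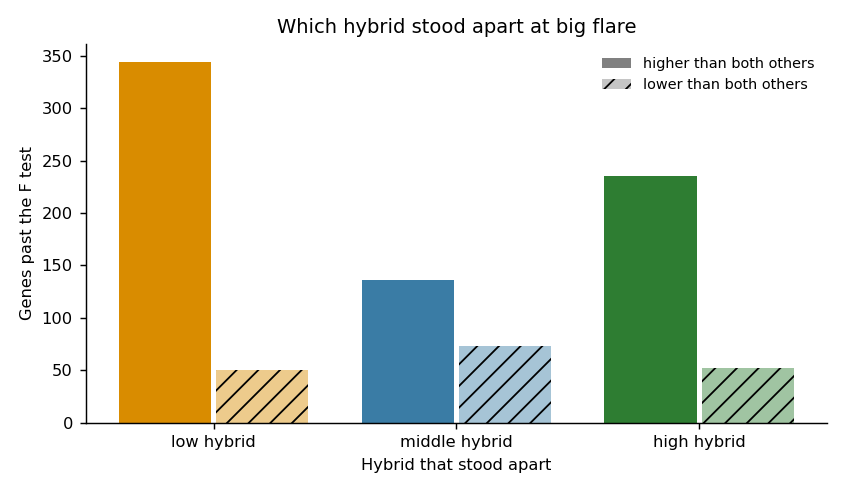
Number of genes past the F test (y axis) in which 1 hybrid stood apart from both others, higher (solid bars) or lower (hatched bars). The low hybrid had 344 genes apart and higher and 50 apart and lower, the middle hybrid 136 and 73, and the high hybrid 235 and 52.

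Between the high and the low hybrid, the largest differences were genes that 1 hybrid expressed strongly and the other scarcely or not at all. The genes named for each pair are, by rule, the 5 largest each way whose call held in every fit without 1 big flare library and under 2 other scalings. Of the 93 higher and 114 lower genes that met the rules of size, name and level, 47 and 54 also held the call throughout. A gene like the peptidyl-prolyl isomerases, which help proteins fold (Zm00001d050635), stood at 0.88 and 0 FPKM in the low libraries, 25.7 and 18.7 in the middle and 239 and 462 in the high libraries. No library of the 3 hybrids overlapped another hybrid, and the high minus low difference was 7.93 ± 0.84 (SE, adjusted p = 0.000133). A class IV heat shock protein gene (Zm00001d025508), a small chaperone, was listed at 0 in all low and middle libraries and at 23.6 and 86.8 FPKM in the high libraries (adjusted p = 0.00268 against low). Against middle its adjusted p was 0.00453, and 0.0721 without high replicate 2. High against low did not pass the test at the other stages (adjusted p = 0.488 at jointing and 0.227 at tasseling), though its interaction with stage was not called either.

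Another 3 genes were listed at 0 in the low hybrid and present in both other hybrids. The SUI1 homolog (Zm00001d035710), a factor that selects the start codon in translation, was at 103 and 43.0 FPKM in the middle and 57.8 and 79.8 in the high libraries (adjusted p = 4.38e-05 for high against low and 4.35e-05 for middle against low). A subunit of NADH-ubiquinone oxidoreductase (Zm00001d009803), the first complex of the respiratory chain, was at 30.5 and 37.2 FPKM in the middle and 26.7 and 39.9 in the high libraries (adjusted p = 1.66e-05 and 1.51e-05). A membrane protein locus (BGI_novel_G000965) was at 47.5 and 49.9 FPKM in the middle and 17.8 and 30.3 in the high libraries (adjusted p = 0.000199 and 5.01e-05). In these genes the low hybrid stood alone at 0. The middle and high libraries overlapped in the first 2, and in the membrane protein locus both middle libraries lay above both high libraries.

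The reverse pattern, high expression in the low hybrid alone, held for the 5 genes furthest down. A class I small heat shock protein gene (Zm00001d028557) was at 161 and 145 FPKM in the low libraries, at 0 in both middle libraries and at 0 and 1.71 in the high libraries. The high minus low difference was -6.55 ± 0.85 (adjusted p = 0.000607). Glutaredoxin-C1-like (Zm00001d027695), of a family of small redox proteins, was at 23.6 and 34.4 FPKM in the low libraries and listed at 0 in the other 4 (adjusted p = 0.000879 for high and 0.00104 for middle against low). An auxin-repressed protein-like gene (Zm00001d005804) was at 21.8 and 72.7 FPKM in the low, 4.99 and 1.74 in the middle and 1.08 and 0 in the high libraries. A gene matched to SUVR5, a histone lysine methyltransferase (Zm00001d043649), was at 25.8 and 33.6 FPKM in the low libraries and at 0.22 or less in the others, with a high minus low difference of -4.8 ± 0.31 (adjusted p = 4.73e-06). A Na+/H+ antiporter gene (Zm00001d028330), whose family exchanges sodium for protons across membranes, was at 48.3 and 37.4 FPKM in the low libraries and at 0.27 to 0.86 in the others. Its difference from the low hybrid was -4.69 ± 0.31 in high and -5.09 ± 0.31 in middle (adjusted p = 4.98e-06 and 3.08e-06).

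Between the middle and the low hybrid, several of the same loci led, joined by genes in which the middle hybrid stood alone. Of the 67 higher and 109 lower genes that met the rules of size, name and level, 27 and 56 held their call throughout. A cysteine protease locus (BGI_novel_G000791) was listed at 0 in the low libraries, at 45.8 and 98.2 FPKM in the middle and at 3.11 or less in the high libraries (adjusted p = 6.47e-05 for middle against low). A gene matched to actin-depolymerizing factor, which severs actin filaments (Zm00001d034326), was at 39.3 and 50.1 FPKM in the middle libraries and listed at 0 in the other 4 (adjusted p = 2.72e-06 against low and 4.08e-06 against high). These 2 loci marked the middle hybrid.

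Genes missing from the middle hybrid were as marked. A mini zinc finger gene (Zm00001d023289), of a family of small regulatory proteins, was at 55.9 and 121 FPKM in the low and 35.6 and 29.5 in the high libraries and listed at 0 in both middle libraries (adjusted p = 0.000361 for middle against low and 0.00304 for high against middle). The cytosolic ascorbate peroxidase gene APx2 (Zm00001d007569), which removes hydrogen peroxide, was at 29.9 and 54.6 FPKM in the low and 55.1 and 65.4 in the high libraries and listed at 0 in the middle ones (adjusted p = 1.57e-05 and 1.42e-05). A vacuolar proton pyrophosphatase-like gene (Zm00001d005779), of the pumps that acidify the vacuole, was at 21.5 and 31.9, 0.56 and 0.96, and 30.6 and 36.1 FPKM in low, middle and high. It was 4.29 ± 0.39 log2 units higher in the high hybrid than in the middle one (adjusted p = 9.98e-05). In all 3 genes the middle hybrid was at or near 0 and the other hybrids were expressed, with both low libraries above both high libraries in the mini zinc finger gene and below them in APx2.

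Between the high and the middle hybrid, 63 higher and 48 lower genes met the rules of size, name and level, and 31 and 21 of them held their call throughout. A dnaJ-like gene (Zm00001d045645), a co-chaperone, was at 0.09 and 0 FPKM in the low, 0.13 and 0.32 in the middle and 23.5 and 23.9 in the high libraries, a high minus middle difference of 4.34 ± 0.37 (adjusted p = 6.88e-05). A serine/arginine repetitive matrix-like locus (BGI_novel_G000569), matched to a splicing factor, was at 0.39 and 0.45, 0 and 0, and 22.5 and 35.3 FPKM (adjusted p = 0.000594). Lower in the high hybrid was an ABC transporter E-like locus (BGI_novel_G001560), of a family that recycles ribosomes, at 0 and 0.92 FPKM in the low, 22.8 and 23.5 in the middle and 0 in both high libraries (adjusted p = 4.52e-05). Also among the 5 furthest down were the actin-depolymerizing factor and cysteine protease genes above and 2 nuclease-like loci described last.

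Some genes followed the order of plant height. Among the 1021 genes past the F test, 69 (6.8%) rose from low to middle to high with no overlap of libraries, and 84 (8.2%) fell, where 1.25% and 1.74% of all tested genes show those orders. These ordered genes were also sorted above by which hybrid stood apart, so the counts overlap. The F test picks genes whose hybrids lie apart, so larger shares among them follow from that choice. It does not test the step from low to middle or from middle to high on its own. Other orders of the hybrids were not counted, and nothing about plant height is read from these shares. Of the ordered genes, 35 of 69 rising and 40 of 84 falling had their group means in the same order at jointing and at tasseling as well. The sign between low and high was the same at both stages in 60 and 79 of them, and in 39.9% of all tested genes. No share over all genes was computed for the order of means, so nothing is read from those counts. The genes that follow were chosen after their values were seen. AGD11 (Zm00001d021529), an activator of small GTPases of vesicle traffic, was at 9.44 and 13.4 FPKM in the low, 17.9 and 16.6 in the middle and 262 and 194 in the high libraries (adjusted p = 1.59e-05 in the F test). In AGD11 the high hybrid lay far above both others. Its low and middle libraries overlapped at jointing and at tasseling, so its order from low to middle was seen at big flare only. An isoflavone reductase homolog (Zm00001d041746) was at 43.6 and 51.8, 133 and 121, and 258 and 234 FPKM (adjusted p = 0.0112). A gene matched to a brassinosteroid receptor (Zm00001d014769) was listed at 0 in both low libraries, at 1.14 and 1.59 FPKM in the middle and at 5.56 and 5.54 in the high libraries (adjusted p = 0.00143). In the opposite order, discordia 1 (Zm00001d003796), which places the division plane in maize leaf cells, was at 76.6 and 52.6, 28.68 and 32.03, and 17.65 and 15.46 FPKM (adjusted p = 0.00429).

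Known plant height genes did not pass the test in any pair. The list had 12 members, all tested, with 0 called in limma and 0, 1 and 2 at an unadjusted p under 0.05 in high against low, middle against low and high against middle. Over all genes 2.91%, 2.41% and 1.61% were called in these pairs. A count of 0 in a list of 12 is therefore near the background, and nothing particular to these genes is read from it. Dwarf3 (Zm00001d045563), a gibberellin synthesis enzyme, was at 114 and 12.4 FPKM in the low, 24.8 and 55.2 in the middle and 21.1 and 20.2 in the high libraries (high minus low -0.86 ± 1.06, adjusted p = 0.943), and low replicate 1 lay far above all others. GA 3-oxidase 1 (Zm00001d039634), which makes active gibberellin, was at 7.92 and 50.7, 16.8 and 0.92, and 9.15 and 14.3 FPKM, with the replicates of the low and of the middle hybrid on either side of the high libraries. The DELLA gene dwarf9 (Zm00001d013465), a repressor of gibberellin response, was at 109 and 137, 116 and 93.6, and 116 and 139 FPKM, with a high minus low difference of 0.05 ± 0.34. Brachytic2 (Zm00001d031871), an auxin transporter, was at 174 and 67.0, 94.9 and 130, and 56.51 and 73.03 FPKM (-0.74 ± 0.42, adjusted p = 0.642).

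The other members gave differences within 1 log2 unit between high and low. Nana1 (Zm00001d042843), a brassinosteroid synthesis enzyme, had a high minus low difference of -0.11 ± 0.45. CYP85A1 (Zm00001d033180), of the same pathway, was at 0.23 ± 0.71. The phytochromes PhyB1 (Zm00001d028905) and PhyB2 (Zm00001d047632), which sense red light, were at -0.17 ± 0.24 and -0.37 ± 0.3. In the high minus middle comparison these 2 phytochromes had the lowest adjusted p of the list, 0.281 and 0.38. Liguleless2 (Zm00001d042777), a transcription factor of leaf and tassel architecture, was at 0.05 ± 0.6, and a further member (Zm00001d027886) at 0.01 ± 0.31. The gene named kaurene synthase 2 (Zm00001d029648) was at 0.05 ± 0.89 and the auxin carrier gene PIN1d (Zm00001d052442) at 0.19 ± 0.52, both at 2.51 FPKM or less in all libraries.

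The shares of hormone genes called lay near those of all genes. In high against low they were 3.7% for gibberellin, 4.12% for auxin, 2.86% for ethylene and 3.03% for abscisic acid, against 2.91% of all genes, and nothing particular to these lists is read from them. Of 27 gibberellin genes, 1 was called, a DELLA GAI-like gene (Zm00001d009646) at 0.24 and 0.27 FPKM in the low, 1.95 and 0.64 in the middle and 3.11 and 4.24 in the high libraries (1.89 ± 0.38 for high minus low, adjusted p = 0.0151). That call was lost without any 1 of the 4 libraries compared (adjusted p = 0.051 to 0.127). Of 97 auxin genes, 1 was higher and 3 lower in the high than in the low hybrid, and 2 were lower in the middle hybrid. An auxin-repressed protein gene (Zm00001d032423) was at 105 and 198, 56.2 and 25.3, and 26.0 and 40.1 FPKM in low, middle and high, a high minus low difference of -2.12 ± 0.39 (adjusted p = 0.00777, but 0.0966 without high replicate 1 and 0.0939 without low replicate 2).

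Of 70 ethylene genes, 2 were higher in the high than in the low hybrid. The transcription factor gene ERF113 (Zm00001d031673) was at 0.43 and 0.5, 1.25 and 0.78, and 3.54 and 10.6 FPKM in low, middle and high, a high minus low difference of 2.31 ± 0.37 (adjusted p = 0.00336). An ACC oxidase gene (Zm00001d044978), for the last step of ethylene synthesis, was listed at 0 in the low, at 2.74 and 0 in the middle and at 8.61 and 12.6 FPKM in the high libraries (adjusted p = 0.0256, and 0.0989 to 0.175 without any 1 of the 4 libraries compared). No cytokinin (36 tested) or jasmonate gene (21 tested) passed limma in any pair, with 0 to 5 and 1 to 3 at an unadjusted p under 0.05. Of 99 genes of abscisic acid and desiccation, 1 was higher and 2 lower in high than in low, among them dehydrin 13 (Zm00001d033483), a protein of drying cells. It was at 193 and 536, 89.97 and 79.97, and 48.04 and 71.71 FPKM, a high minus low difference of -2.44 ± 0.46 (adjusted p = 0.00981, but 0.111 without high replicate 1 and 0.1 without low replicate 2).

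Wall genes, whose replicates differed widely, gave few calls, and with 1.61% to 2.91% of all genes called a count of 0 in lists of this size is near the background. No expansin of 26 tested passed limma in any pair, with 0, 3 and 2 at an unadjusted p under 0.05. None of 20 cellulose synthase genes passed (0, 1 and 1 at unadjusted p), and none of 20 secondary wall genes (0 in each pair). The median cellulose synthase difference between high and middle was -0.47, with 3 of 20 above 0. It was 0.05 without low replicate 1 and middle replicate 2. The cinnamyl alcohol dehydrogenase gene cad1 (Zm00001d002346), for the last step of monolignol synthesis, was the gene called among 47 of lignin synthesis (2.13% in each pair against low, where 2.91% and 2.41% of all genes were called). At 2.01 and 0.57, 15.3 and 11.9, and 31.0 and 34.9 FPKM, it was 3.96 ± 0.63 higher in high than in low (adjusted p = 0.0029), against 2.23 at jointing and -0.25 at tasseling. At 2.73 ± 0.63 it was also higher in middle than in low (adjusted p = 0.0388), a call lost in 10 of 18 fits without 1 library, at up to 0.259. A pectinesterase gene (Zm00001d048648), which modifies pectin, was at 0.53 and 0, 6.13 and 10.9, and 1.48 and 0 FPKM in low, middle and high (adjusted p = 0.00676 for middle against low, but 0.0748 without low replicate 2 and 0.0861 without middle replicate 2). Of 52 wall polysaccharide enzymes, 0 were called in high against low (1 at an unadjusted p under 0.05), 1 in middle against low (1.92%, against 2.41% of all genes) and 2 in high against middle (3.85%, against 1.61%). A further pectinesterase gene, QRT1 (Zm00001d022104), was at 0.21 and 0.24 FPKM in the low, 0 in the middle and 2.77 and 3.11 in the high libraries (adjusted p = 0.041 for high against middle, lost in 12 of 18 fits without 1 library, at up to 0.23). Of 27 aquaporins none passed limma in any pair, with 1 in each at an unadjusted p under 0.05.

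The summed histone level was alike in the 3 hybrids, and a few H2A variants were higher in the high hybrid. Of 42 tested, 3 were higher in high than in low (7.14%, against 1.24% of all genes called in that direction) and the same 3 were higher in high than in middle. A further histone gene was called lower in high than in middle, and H2B.3 (Zm00001d005789) lower in middle than in low, at 15.6 and 11.7, 0 and 2.09, and 14.27 and 14.02 FPKM in low, middle and high (adjusted p = 0.0428, lost in 11 of 18 fits without 1 library, at up to 0.306). H2A.V-like (BGI_novel_G000085), a histone variant of chromatin regulation, was at 0 in both low libraries, 0.32 and 0 in the middle and 14.6 and 11.9 FPKM in the high libraries (adjusted p = 6.84e-05 against low and 0.000206 against middle). A second H2A.V-like gene (Zm00001d009350) was at 0 and 2.0, 0 and 0, and 16.6 and 13.6 FPKM (adjusted p = 0.00391 and 0.00138). The third (BGI_novel_G001397) was at 0 and 0, 0 and 1.58, and 16.8 and 11.9 FPKM, with adjusted p = 0.00536 against low (0.0555 without high replicate 1) and 0.0291 against middle, lost without high replicate 1, high replicate 2 or middle replicate 1 at 0.124 to 0.234. Reads of near-identical histone copies can be split between genes, so these levels are uncertain.

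Ribosomal protein genes had medians below 0 in the middle and high hybrids against low, with calls near the background share. Of 187 tested, 1 was called higher and 5 lower in high than in low (3.21%, against 2.91% of all genes, and 3 genes without low replicate 1), with a median of -0.2 and 75 with both high libraries below both low libraries (all genes: 19.1%). In middle against low, 2 were called higher and 5 lower (3.74%, against 2.41% of all genes), with a median of -0.21 and 72 below (all genes: 18.9%). Those 7 calls fell to 4 without low replicate 1 and to 2 without middle replicate 2. At jointing the same medians were 0.06 and 0.0, and at tasseling -0.63 and -0.12, where the medians of all genes were -0.234 and -0.098. An S4-like gene of the small ribosomal subunit (Zm00001d053283) was at 9.64 and 8.77 FPKM in the low libraries and at 0 to 0.78 in the others (adjusted p = 0.000333 for high against low). The L31 gene of the large subunit (Zm00001d017850) was at 858 and 1196, 251 and 152, and 267 and 323 FPKM, a middle minus low difference of -2.37 ± 0.44 (adjusted p = 0.00956, but 0.0899 without low replicate 2 and 0.116 without middle replicate 2). The SA gene (Zm00001d027919) was at 10.2 and 19.5 FPKM in the high libraries and listed at 0 in the other 4 (adjusted p = 6.1e-05 against low).

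Photosynthesis genes, a sign of green tissue in the stem, stood above the low hybrid in the middle hybrid in nearly all members, yet almost none passed singly. Of 59 tested, 53 had a middle minus low difference above 0, with a median of 0.78, where the median of all genes was -0.01. In 32 members both middle libraries lay above both low libraries (all genes: 14.7%). Only 2 passed the test (3.39%, against 0.814% of all genes called in that direction). At jointing 46 members were above 0 with a median of 0.36, at tasseling 54 with a median of 0.7, and 42 of the 59 were above 0 at all 3 stages. Without low replicate 1 and middle replicate 2 the big flare median was 0.68. The summed level was 4816 and 8644 FPKM in the low, 12122.5 and 8551 in the middle and 11257 and 5307 in the high libraries, so middle replicate 2 lay just below low replicate 2. The list of leaf enzymes of C4 photosynthesis, 12 genes of which 7 were tested, summed to 392 and 345 FPKM in the low, 522 and 556 in the middle and 383 and 435 in the high libraries, with 0 called. Its part in the difference was not tested. The largest called member was a gene matched to the Rubisco large subunit (Zm00001d045698). It was at 23.9 and 5.14 FPKM in the middle libraries at big flare and listed at 0 in the other 16 libraries (limma adjusted p = 0.000645 against low). It passed the filter only through those middle libraries, and its call was lost with the big flare libraries alone. Its limma interaction with stage was not called (adjusted p = 0.0739 against low and 0.0672 against high). A gene of the oxygen-evolving complex (Zm00001d027422) was at 2.2 FPKM or less in the low, 9.04 and 11.8 in the middle and 4.63 and 3.38 in the high libraries, 2.07 ± 0.42 higher in middle than in low (adjusted p = 0.0189, lost in 4 fits without 1 library). Among the members, 4 have values identical to those of another member, and these are not independent.

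**Figure D3:**
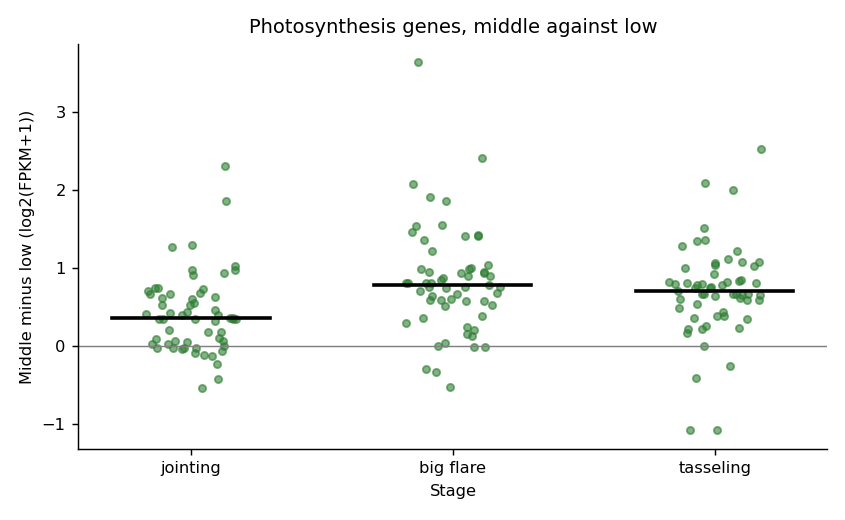
Middle minus low difference (log2(FPKM + 1), y axis) of the 59 tested photosynthesis genes at each stage, 1 point a gene, with the median as a black line. The medians are 0.36 at jointing, 0.78 at big flare and 0.7 at tasseling, and most points lie above 0.

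Defence genes were called at shares near the background, with 1 wide difference that rested on single libraries. A wound-induced serine protease inhibitor gene (Zm00001d008548), which blocks the digestive enzymes of insects, was at 13.95 and 4.22 FPKM in the low, 635 and 351 in the middle and 1.92 and 4.65 in the high libraries. The high minus middle difference was -6.86 ± 1.36 (adjusted p = 0.0222), and the middle was 5.74 ± 1.36 higher than the low (adjusted p = 0.0466). The first call was lost without any 1 of the 4 libraries compared (adjusted p = 0.0987 to 0.17) and the second in 12 of 18 fits without 1 library, at up to 0.266. An endo-1,3;1,4-beta-D-glucanase gene (Zm00001d010343), which cuts mixed-linkage glucan of grass walls, was at 34.8 and 38.7, 7.0 and 7.7, and 15.7 and 18.1 FPKM, a middle minus low difference of -2.18 ± 0.28 (adjusted p = 0.00064). An acidic endochitinase-like gene (Zm00001d019407), of enzymes that cut fungal walls, was at 0 in the low, 0 and 0.37 in the middle and 4.34 and 2.48 FPKM in the high libraries (adjusted p = 0.00261 against low). In all, 1, 2 and 3 of 81 such genes were called in high against low, middle against low and high against middle (1.23%, 2.47% and 3.7%, against 2.91%, 2.41% and 1.61% of all genes).

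Of 67 heat shock genes, 1 was higher and 1 lower in high than in low (2.99%), 2 were lower in middle than in low (2.99%) and 1 was higher in high than in middle (1.49%), against 2.91%, 2.41% and 1.61% of all genes. They rested on the class IV and class I genes above and on a low molecular weight heat shock protein gene (Zm00001d052194). That gene was at 219 and 209 FPKM in the low, 64.4 and 43.4 in the middle and 208 and 155 in the high libraries, and its call (-2.0 ± 0.48 for middle minus low, adjusted p = 0.0491) was lost in 14 of 18 fits without 1 library. Of 42 genes of tubulin and actin, 2 were higher and 2 lower in high than in low (9.52%, against 2.91% of all genes). Most of these calls were lost without low replicate 1. In high against middle 1 was higher and 2 were lower (7.14%, against 1.61% of all genes). In middle against low 1 was higher (2.38%, against 2.41%). Actin-depolymerizing factor 5 (Zm00001d047942) was at 158 and 100.3, 168 and 254, and 32.4 and 28.4 FPKM, a high minus middle difference of -2.73 ± 0.46 (adjusted p = 0.00812, but 0.0511 to 0.0939 without high replicate 1, high replicate 2 or middle replicate 2).

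The remaining lists had calls in single genes. A lipid-transfer-like gene (Zm00001d030830) was at 7.44 and 7.93 FPKM in the high libraries and listed at 0 in the other 4 (adjusted p = 0.000364 against low), and actin-7 (Zm00001d019396), a cytoskeletal actin, was at 7.12 and 7.09 FPKM in the high libraries and at 0.3 or less elsewhere (2.83 ± 0.31 against low, adjusted p = 0.000194). Of 46 cell division genes, 1 was higher in high than in low and 1 lower in middle than in low (2.17% each, against 2.91% and 2.41% of all genes). Cyclin-A1-1-like (Zm00001d010404), of a family that drives the cell cycle, was at 1.9 and 1.79, 2.71 and 2.51, and 6.17 and 6.96 FPKM (1.41 ± 0.28 for high minus low, adjusted p = 0.0143, and 0.0641 to 0.109 without any 1 of the 4 libraries compared). Cyclin-A2 (Zm00001d023732), of the same family, was at 2.51 and 2.4 FPKM in the low, 0 in the middle and 0.25 and 1.08 in the high libraries (adjusted p = 0.0141 for middle against low, and 0.0771 to 0.0931 without any 1 of the 4 libraries compared). A pair of sucrose synthase family genes, which split sucrose, were called lower than in the low hybrid, Zm00001d029091 in high and Zm00001d029087 in middle. They were at 95.2 and 23.1 and at 89.9 and 22.9 FPKM in the low libraries and at 6.02 to 17.2 in all others, and both calls were lost without either library of the hybrid compared with low (0.0587 and 0.0643 for the second), the first also without low replicate 1 (adjusted p = 0.133 to 0.206). No benzoxazinoid gene (16 tested) and no KNOX gene (10 tested) passed limma in any pair, with 0 to 2 at an unadjusted p under 0.05 in each list. The floral MADS-box list had 1 call among 24, in middle against low (4.17%, against 2.41% of all genes). That gene (Zm00001d042550) was at 9.16 and 4.39, 0 and 0.68, and 0 and 2.42 FPKM (adjusted p = 0.0428, lost in 14 of 18 fits without 1 library, at up to 0.262).

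Most hybrid differences of big flare were also seen at the other stages. The stages share no libraries, only the estimate of spread. Of the 779 genes called between high and low, 95.1% had the same sign at jointing and 94.4% at tasseling, where 59.4% and 60.3% of all genes do. The median gene kept 0.8 of its big flare difference at jointing and 0.85 at tasseling. Over all genes, high against low called 2.34% at jointing (1.09% higher and 1.25% lower) and 5.45% at tasseling (1.94% and 3.51%). Middle against low called 1.89% (0.635% and 1.25%) and 2.55% (0.691% and 1.86%), and high against middle 1.24% (0.799% and 0.444%) and 1.21% (0.758% and 0.455%). At jointing 432 of the 779 were called as well and at tasseling 502, with 374 called at all 3 stages and 219 at neither other stage. For middle against low, 94.1% and 95.8% of 647 genes kept their sign (all genes: 62.5% and 64.0%), and 444 (68.6%) were called at another stage. For high against middle, 88.6% of 431 genes kept their sign at both stages (all genes: 36.4%), and 256 (59.4%) were called at another stage. Genes higher in the middle hybrid recurred in smaller numbers: 52.8% of the 218 genes higher in middle than in low were called at another stage and 76.7% of the 429 lower genes, a difference in shares that was not tested.

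**Figure D4:**
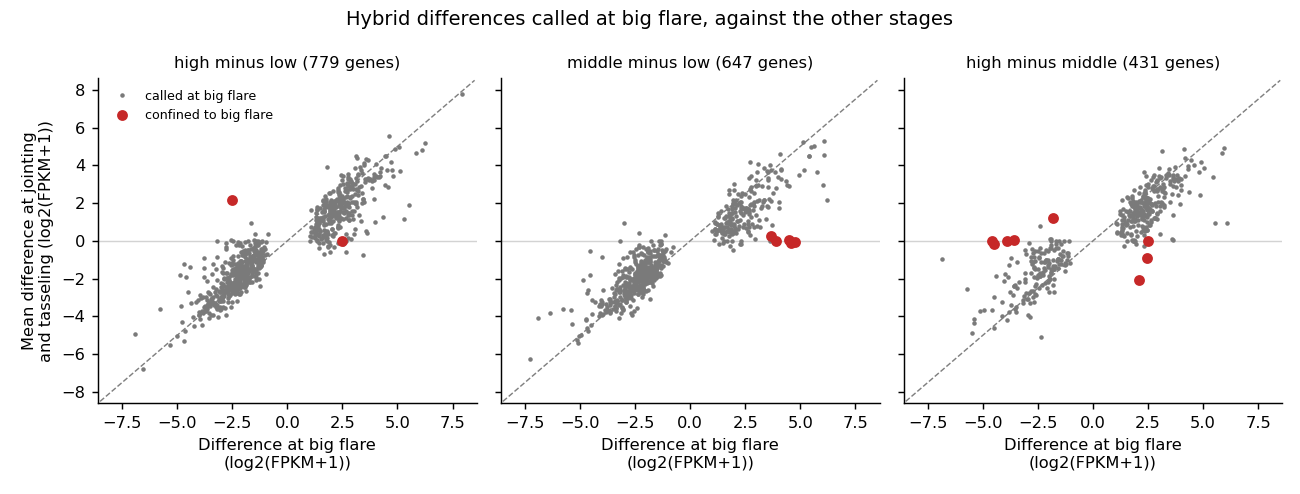
Difference at big flare (x axis) against the mean difference at jointing and tasseling (y axis), both as log2(FPKM + 1), for the genes called at big flare in each pair of hybrids. The dashed line marks equal differences, most genes lie along it, and the 2, 5 and 8 genes confined to big flare (red) lie near 0 or across it at the other stages.

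Few differences could be shown to be confined to big flare. The test was an interaction contrast, the big flare difference minus the mean of the differences at the other stages. It was passed by 2, 6 and 8 genes in high against low, middle against low and high against middle (0.00746%, 0.0224% and 0.0299% of genes), where 1387, 821 and 955 had an unadjusted p under 0.05. A gene was called confined when it also passed at big flare with the same sign and differed at each other stage by less than 1 log2 unit and less than 0.5 of its big flare difference, or in the other direction. That left 2, 5 and 8 genes (0.00746%, 0.0187% and 0.0299%). The same rule gave 0, 7 and 7 genes (0.0%, 0.0261% and 0.0261%) at jointing and 0 in each pair at tasseling. The rule of size alone was met by 101 of 779 called genes (13.0%), 70 of 647 (10.8%) and 65 of 431 (15.1%), so most genes called at big flare alone in size were not shown to differ between stages. Without single libraries the interaction counts also moved: for high against low to 4 without high tasseling replicate 2, 6 without low replicate 1 and 11 without low replicate 2, for middle against low to 14 without low replicate 2, and for high against middle to 5 without high tasseling replicate 1. Without low replicate 2 the confined genes numbered 10 for high against low and 11 for middle against low, without low replicate 1 there were 6 for high against low, and without either high tasseling library there were 5 for high against middle.

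The clearest of them lay in the middle hybrid. A group of loci in the deposited table, with identifiers outside the reference gene set and matched to putative nuclease HARBI1, a nuclease derived from a DNA transposon, was expressed in both middle libraries at big flare and almost nowhere else. BGI_novel_G000490 was at 28.7 and 18.6 FPKM there, at 0 in the other 4 big flare libraries and at no more than 0.32 in the 12 libraries of other stages (interaction adjusted p = 0.000125 against low and 0.000161 against high). BGI_novel_G000492 was at 28.0 and 16.7 FPKM there, at 0 in the other 4 and at no more than 0.69 at other stages (adjusted p = 0.00105 and 0.00115). BGI_novel_G000495 was at 20.0 and 9.73 FPKM there and at 0 in all other 16 libraries (adjusted p = 0.00105 and 0.00115). All these interaction calls held in each of the 18 fits without 1 library. These loci passed the filter only through the 2 middle libraries at big flare. The other groups, at or near 0, add almost no spread, so leaving out 1 of their libraries could hardly change the calls.

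Neighbours in name behaved alike with less support. BGI_novel_G000496 was at 17.8 and 25.5 FPKM in the middle libraries at big flare, 0.45 to 1.31 in the other 4 and no more than 2.16 at other stages. Its interaction adjusted p of 0.0489 against low was lost in 17 of 18 fits without 1 library, at up to 0.219, and that of 0.0186 against high in 9 of 18, at up to 0.145. BGI_novel_G000494 was at 17.0 and 17.2 FPKM and at 1.75 or less in all other libraries, with interaction adjusted p = 0.0508 against low, past the threshold for the difference at big flare (0.000284) and not for the interaction. BGI_novel_G000491 was too low to be tested, at 0.51 and 3.68 FPKM in the middle libraries. These 6 loci share their first protein match, so they may be near-identical copies between which reads are split, and they are not independent. Of 14 genes with this name 12 were tested, and 1 of the others, Zm00001d032375, was higher in the low hybrid at big flare, at 5.79 and 6.47 FPKM against 0.23 to 0.74 (adjusted p = 0.000656 for middle against low). It was chosen after its values were seen.

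**Figure D5:**
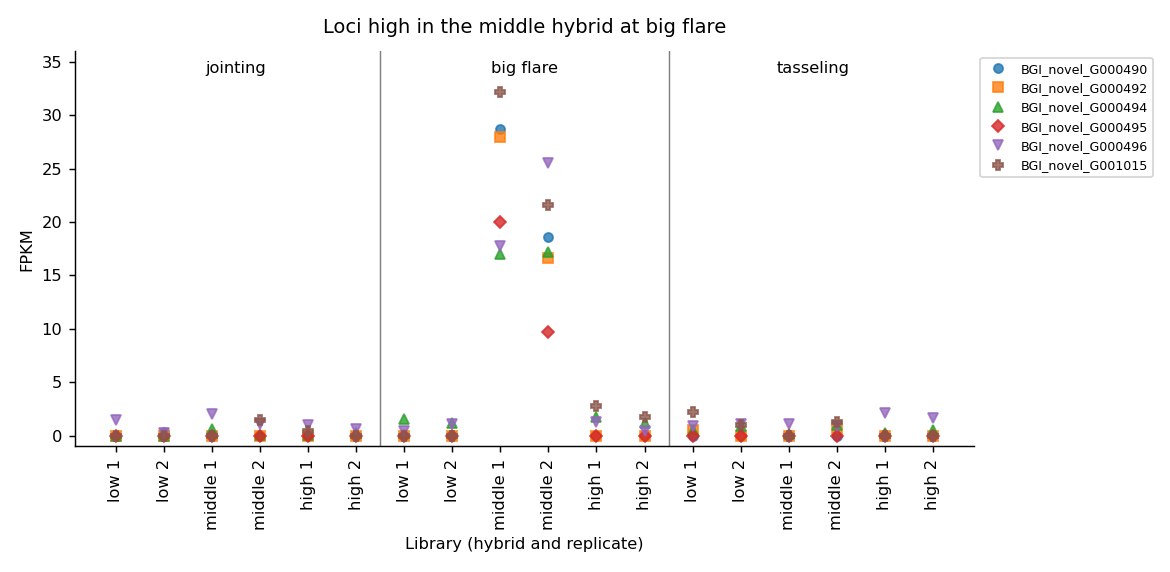
FPKM (y axis) of 5 nuclease-like loci and 1 zinc finger locus in each of the 18 libraries (x axis), grouped by stage. The 2 middle libraries at big flare lie between 9.73 and 32.2 FPKM, and no other library is above 2.76.

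A locus matched to a CCCH zinc finger protein, of a family that often binds RNA (BGI_novel_G001015), was also highest in the middle libraries at big flare. It was at 32.2 and 21.6 FPKM in the middle, 0 in the low and 2.76 and 1.71 in the high libraries, and at 2.22 or less at other stages (interaction adjusted p = 0.0125 against low). Against high the interaction was not called (adjusted p = 0.504), unlike that of the first 3 nuclease-like loci. The call against low was lost without low replicate 1 or middle replicate 1 at big flare, at up to 0.135. In the high hybrid, the unnamed gene Zm00001d050233 was at 5.04 and 4.15 FPKM at big flare and at 0 in all other 16 libraries (interaction adjusted p = 0.0121 against low and 0.00483 against middle, the first 0.0586 without high replicate 1). Zm00001d050233 passed the filter only through the high libraries at big flare. The other groups, all at 0, add no spread, so its p-values rest on the spread between those high libraries and the shared prior. Another unnamed gene, Zm00001d021356, was listed at 0 in the high hybrid at this stage, at 3.1 and 7.09 FPKM in the low, 2.49 and 2.61 in the middle libraries. Its high minus low difference was -2.53 ± 0.32 at big flare but 2.44 at jointing and 1.89 at tasseling, and its interaction of -4.69 ± 0.39 (adjusted p = 0.000761) held in all 18 fits without 1 library.

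The other confined differences between high and middle were of low, unnamed loci, and they changed sign at another stage. At big flare, jointing and tasseling, the high minus middle difference of BGI_novel_G000538 was 2.44, -1.77 and 0.0. That of BGI_novel_G000522 was 2.11, -2.39 and -1.79, and that of Zm00001d021356 was -1.83, 0.53 and 1.89. These loci counted as confined only through the rule's clause on the other direction, so they differed at other stages too. BGI_novel_G000538 was at 3.38 and 2.84, 0 and 0, and 3.81 and 5.13 FPKM in low, middle and high (interaction adjusted p = 0.0035). BGI_novel_G000522 was at 2.85 and 3.83 FPKM in the high libraries and at 0 in the other 4, with an interaction adjusted p of 0.018 that was lost in 8 of 18 fits. Zm00001d021356, described above, was confined here too (0.0162, lost in 7 of 18). One locus passed the interaction test without being confined: BGI_novel_G000367 was at 69.7 and 59.7 FPKM in the middle and 84.1 and 69.2 in the high libraries and listed at 0 in the low ones, and its middle minus low difference was 0.63 at jointing and 5.24 at tasseling.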

How the data were processed

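Poly-A RNA of maize stems was sequenced as paired ends, per the labels' protocols, and the authors deposited 1 table of FPKM values for 34474 genes in 18 libraries. The submitters' processing notes name TopHat2, Cufflinks 2.2.1, Cuffdiff, DESeq 1.28.0 and the build B73 RefGen_v4, without their roles. Alleles unlike B73 and lower RNA levels cannot be told apart. Gene names come from the protein matches in the deposited table, and symbols from a reference table of another assembly, used for names alone.

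Genes at 1 FPKM or more in at least 2 of 18 libraries were tested (26792, leaving 7682). Values were taken as log2(FPKM + 1) and fitted in limma 3.58.1 (R 4.3.3) with a mean for each of 9 groups, a trended eBayes prior and Benjamini-Hochberg adjustment over all tested genes, at a threshold of 0.05. All 18 libraries gave the spread, with 9 residual degrees of freedom. The fit was tested on simulated data. FPKM holds no counts, so no counting interval is given. Relative depth was read from 326 low-value genes, and 81.7% of 306 ordered pairs of libraries fell within 0.05 log2 units of the fitted depths.

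Named genes were the 5 largest changes each way among called genes with an informative name, a mean of 5 FPKM on the higher side, no overlap and a call held without each big flare library and under median-of-ratios and quantile scaling. Up to 3 called members of each list and all plant height genes were also named. Members and lists were chosen with earlier results of these data known. Alternatives were a pseudocount of 0.1, no filter, a filter on big flare, other scalings, relative depth as a covariate, a robust prior, big flare libraries alone, a replicate block, a size limit of 0.5 log2 units and leaving out each library.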

Additional observations from a re-analysis of the deposited data

Results flagged for a closer look

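A difference between hybrids at big flare that differed from the mean of the same difference at jointing and tasseling, by the limma interaction test, was found in 16 gene comparisons. Values are differences of differences on the log2(FPKM + 1) scale, and where a group is listed at 0 their size depends on the pseudocount. For high minus low, Zm00001d050233 was at 2.48 and Zm00001d021356 at -4.69. For middle minus low, the nuclease-like loci BGI_novel_G000490, BGI_novel_G000492, BGI_novel_G000495 and BGI_novel_G000496 were at 4.69, 4.46, 3.91 and 3.42. The zinc finger locus BGI_novel_G001015 was at 4.83 and the unnamed locus BGI_novel_G000367 at 3.1. For high minus middle, the same 4 nuclease-like loci were at -4.59, -4.31, -3.91 and -3.65 in that order. Zm00001d050233 was at 2.48, BGI_novel_G000538 at 3.32, BGI_novel_G000522 at 4.2 and Zm00001d021356 at -3.03. The pairs of hybrids share libraries, so a locus in 2 pairs counts the same values again.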

How the results depend on the processing

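Counts are given in the order high against low, middle against low and high against middle, then the F test where it applies. The 6 big flare libraries alone gave 430, 358, 211 and 499 genes, and leaving out low replicate 1 and middle replicate 2 together gave 508, 267, 232 and 563. Leaving out 1 library gave 478 to 779, 377 to 647, 223 to 441 and 756 to 1007. The other alternatives stayed within 1.5 times the reported counts at big flare. The interaction test gave 20, 29 and 31 genes with no filter, 4 for high against low and 2 for middle against low with a pseudocount of 0.1, 1 for high against low and 4 for high against middle with relative depth as a covariate, and 5 and 5 in these pairs without the 2 libraries. Without 1 library it gave 2 to 11, 5 to 14 and 5 to 10. Genes confined to big flare numbered 14, 21 and 21 with no filter, 2 for middle against low with a pseudocount of 0.1 and 8 with quantile normalization, 1 for high against low and 4 for high against middle with relative depth, and 5 and 5 in these pairs without the 2 libraries. Without 1 library they numbered 2 to 10, 4 to 11 and 5 to 9. The causes were not tested.

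The labels do not say whether replicate numbers pair the libraries. Deviations of same-numbered big flare libraries correlated at -0.43 for low and middle, 0.016 for low and high and 0.028 for middle and high. At jointing and tasseling these correlations lay between -0.237 and 0.262, and they cannot settle whether libraries were paired. A replicate block gave 602, 529, 310 and 787 genes, 1, 4 and 4 by interaction and 1, 3 and 4 confined. A block with the numbers crossed in the low hybrid, chosen after seeing the data, gave 631, 593, 346 and 892, then 1, 4 and 5, and 1, 3 and 5.

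Of 116 called gene comparisons named, 3364 values under the alternatives held 0 reversals and 465 lost calls, 63 of them with big flare libraries alone. The 36 that were not called remained so in all 1041. Genes named as largest changes had been chosen because their call held without each big flare library and under median-of-ratios and quantile scaling. Their calls could not be lost in those settings, so the counts there do not measure how stable they are. With 2 libraries a group and relative depths of 0.438 to 0.628, small differences of low genes were not detectable.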

Other observations

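These genes were chosen after their values were seen and belong to no list. A nitrate reductase gene (Zm00001d052139), which makes nitrite from nitrate, was at 0.32 and 2.22 FPKM in the low, 1.69 and 2.06 in the middle and 12.2 and 16.2 in the high libraries. It was 2.87 ± 0.55 log2 units higher in high than in low (limma adjusted p = 0.0112, but 0.0995 without high replicate 2 and 0.128 without low replicate 1). The same difference was 0.13 at jointing and 0.1 at tasseling, and the interaction was not called (adjusted p = 0.506). A cytochrome P450 gene (Zm00001d044120) was at 2.83 and 2.85, 8.27 and 11.4, and 28.5 and 19.6 FPKM, 2.68 ± 0.29 higher in high than in low (adjusted p = 0.000178, interaction 0.116). A locus matched to a gag-pol polyprotein of retroelements (Zm00001d040895) was at 4.29 and 14.7 FPKM in the low libraries at big flare and listed at 0 in all others (adjusted p = 0.000358 for high against low, interaction 0.11). It passed the filter only through those low libraries, and its call was lost with the big flare libraries alone.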
